A study of Mus musculus with 6 samples.

Results

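Immunoglobulin transcripts, the messenger RNAs of antibody chains and of the J chain that joins antibody units, were followed in CD8-negative dendritic cells of mouse spleen. A gene was included if its symbol begins as those of the immunoglobulin heavy, kappa and lambda constant, variable, diversity and joining genes do, or is Jchain, and if its reads over all 6 libraries summed to 15 or more. Of 262 such rows among the 27179 genes of the table, 112 were kept, 150 fell below the minimum, and 61 of those 150 had no read at all. One of the 112, Ighmbp2, carries the prefix by name only and encodes a helicase, so 111 immunoglobulin genes are described. They comprise 7 heavy chain constant genes, 40 heavy variable segments, 4 heavy joining segments, the kappa constant gene, 46 kappa variable segments, 4 kappa joining segments, 3 lambda constant genes, 3 lambda variable segments, 2 lambda joining segments and Jchain. The 10 heavy diversity segments and Ighe, the constant gene of IgE with 3 reads in all, fell below the minimum. Just under it, with 14 reads, lay Ighv1-69, Ighv1-85 and Igkv17-121, and at 15 reads lay Ighv1-22, Ighv1-75, Ighv3-8, Ighv5-9-1 and Igkv4-55.

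The RNA came from C57BL/6 mice, 3 libraries from animals pretreated with CpG, a DNA motif sensed by Toll-like receptor 9, and 3 from untreated animals. The series title places the cells after a systemic inflammatory syndrome and calls them paralysed, so the comparison asks what earlier CpG exposure left in their transcriptome. Cells were enriched from spleen, labelled with antibodies, sorted and lysed without culture, and both groups share strain, tissue and sort. The sources used here do not give the dose, route and timing of CpG, the age of the animals, the number of animals per library or the gate beyond CD8. Each library bears a number, 2, 3 or 4, that recurs in both groups.

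An antibody gene is assembled in developing B lymphocytes, where a variable and a joining segment, with a diversity segment between them in the heavy chain, are brought together and spliced to a constant gene. B cells first use the constant gene Ighm (IgM) with Ighd (IgD), and after activation can switch to a gamma gene (IgG) or to Igha (IgA), while the light chain is either kappa or lambda. Plasma cells, which B cells become when they secrete antibody, make these RNAs in very large amounts together with Jchain, which links units of IgM and IgA.

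The joining segments are shown first, because they are the shortest counted units and hold a mark that sets heavy from light chains apart. In the GRCm38 annotation (GENCODE M21) the 4 heavy segments lie on chromosome 12, minus strand, at chr12:113429781-113429833 (Ighj1), chr12:113429468-113429515 (Ighj2), chr12:113429085-113429132 (Ighj3) and chr12:113428514-113428567 (Ighj4). The 4 counted kappa segments lie on the plus strand at chr6:70722562-70722599 (Igkj1), chr6:70722916-70722954 (Igkj2), chr6:70723548-70723585 (Igkj4) and chr6:70723886-70723923 (Igkj5). Capitals mark the letters TGGGG in the heavy and TTCGG in the kappa segments, where the codon of a tryptophan or phenylalanine starts the conserved end of the antigen-binding domain. Searched on the coding strand only, TGGGG was in 4 of 4 heavy, 0 of 5 annotated kappa and 0 of 5 annotated lambda segments, and TTCGG in 0 of 4, 4 of 5 and 4 of 5.
Ighj1: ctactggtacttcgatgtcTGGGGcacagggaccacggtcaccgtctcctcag
Ighj2: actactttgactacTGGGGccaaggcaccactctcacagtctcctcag
Ighj3: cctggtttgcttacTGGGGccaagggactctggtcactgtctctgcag
Ighj4: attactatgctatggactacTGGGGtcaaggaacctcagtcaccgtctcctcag
Igkj1: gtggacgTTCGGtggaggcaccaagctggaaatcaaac
Igkj2: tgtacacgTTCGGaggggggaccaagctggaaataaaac
Igkj4: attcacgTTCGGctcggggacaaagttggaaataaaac
Igkj5: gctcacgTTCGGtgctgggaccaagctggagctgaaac

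The lambda genes exist as near copies, and the stretches below show how little separates them, since a read from a stretch without capitals fits either copy. Iglv1 (chr16:19085017-19085500) and Iglv2 (chr16:19260401-19260859), both on the minus strand, are shown for 120 bases from the start codon, and Iglc2 (chr16:19198396-19198853) and Iglc3 (chr16:19065230-19065681), also minus strand, for the first 120 aligned bases of the constant gene. Capitals mark the bases that differ within each pair, 6 in the variable and 7 in the constant pair.
Iglv1: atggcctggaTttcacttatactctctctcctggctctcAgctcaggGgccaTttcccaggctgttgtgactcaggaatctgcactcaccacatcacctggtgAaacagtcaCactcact
Iglv2: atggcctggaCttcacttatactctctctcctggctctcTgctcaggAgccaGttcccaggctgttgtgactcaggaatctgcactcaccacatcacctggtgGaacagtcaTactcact
Iglc2: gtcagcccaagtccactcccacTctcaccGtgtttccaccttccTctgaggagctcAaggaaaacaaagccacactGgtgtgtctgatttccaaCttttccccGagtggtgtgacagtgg
Iglc3: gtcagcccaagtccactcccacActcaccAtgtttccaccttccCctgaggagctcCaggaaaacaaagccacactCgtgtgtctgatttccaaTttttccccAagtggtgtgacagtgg
Over the whole transcripts Iglv1 and Iglv2 were identical at 96.7% of 366 aligned bases and Iglc2 and Iglc3 at 95.4% of 452, whereas Iglc1 and Iglc2 were identical at 68.4% of 449. Of their stretches of 50 bases, 22.2% in Iglv1, 24.0% in Iglv2, 10.5% in Iglc2 and 10.7% in Iglc3 also occur in another immunoglobulin gene. The same limit holds for the variable segments. Of the 40 heavy variable segments 39, and of the 46 kappa variable segments 32, share at least one stretch of 50 bases with another immunoglobulin gene, up to 57.6% and 53.3% of a segment's 50-base stretches. Which copy such reads came from is therefore uncertain, while Ighm, Igha and Igkc share no stretch of that length.

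Library totals were 7855500 to 8228140 reads assigned to genes, so that 1 read equalled 0.123 to 0.127 CPM, the unit of reads scaled to library size used throughout. The sort was checked on its markers. The 9 conventional dendritic cell markers summed to 33360 to 39190 CPM in the untreated and 30440 to 35620 CPM in the CpG libraries, and Cd8a, which marks the cells the sort leaves out, was at 2.48 ± 1.49 and 3.58 ± 1.69 CPM (SD, n = 3 per group). Libraries of a group differed by far more than sampling noise (chi-square divided by its degrees of freedom, 3.17 to 19.67). CpG library 2 stood apart in the immunoglobulin genes. It held the highest CPM of all 6 libraries in 85 of the 111, and in 2201 of the 11602 genes with enough reads to be tested. Values without it are therefore given beside the results.

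Antibody transcripts were a small part of the RNA. All 111 genes together took 0.0647% to 0.211% of a library's reads, and summed to 876, 898 and 654.5 CPM in the untreated libraries 2, 3 and 4 and to 2089, 1106 and 760 CPM in the CpG libraries 2, 3 and 4. The lowest CpG library lay between the untreated ones, so the groups overlapped, and CpG library 2 was far above all others. The means were 809.5 ± 134.6 and 1318 ± 689.7 CPM (SD, n = 3 per group), a log2 ratio of 0.70, which was 0.20 without CpG library 2. Within same-numbered libraries the log2 ratios were 1.25, 0.30 and 0.215 for numbers 2, 3 and 4. In bulk RNA, more cells of a type and more RNA per cell cannot be told apart.

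Of the 111 genes, 44 had enough reads to be tested in the edgeR fit over 11602 genes, where a gene must reach the minimum in 3 libraries. Of the 44, 7 reached it in all 3 CpG and fewer than 3 untreated libraries, 3 of them (Ighv3-6, Igkv19-93 and Igkv2-137) in 1 untreated library. Another 3 of the 44 reached it in all 3 untreated and fewer than 3 CpG libraries. Without the first 7, 34 of 37 log2 fold changes were above 0, with a median of 0.85. Some of the 37, such as Ighv9-3, Ighv10-1 and Ighv1-64, reached the minimum in 2 CpG and 1 untreated library. Igkv8-27 reached it in 1 CpG and 2 untreated libraries. Leaving out the 7 therefore does not undo the filter. The log2 fold changes of the 44, CpG over untreated, had a median of 0.93 and ran from -0.55 (Igkv12-89) to 1.83 (Ighg2c), and 41 of the 44 were above 0, where 48.9% of all genes tested were and the median was -0.005. Yet none was called at an adjusted p under 0.05 by edgeR's quasi-likelihood test, the lowest adjusted p being 0.178, and 0.974% of all genes tested were called. DESeq2 and limma-voom also called none. At an unadjusted p under 0.05 edgeR had 7 of the 44 higher and 0 lower, against 6.64% and 6.16% of all genes. The groups did not overlap, CpG being higher, in 5 of the 44 (Ighj1, Igkv10-96, Igkv14-111, Ighv3-6 and Igkv2-137), a share near the 9.2% of all genes, and in 0 with CpG lower, against 9.47%. Of the 5, Igkv10-96, Ighv3-6 and Igkv2-137 are among the 7 that reached the minimum in fewer than 3 untreated libraries, so the filter favoured this order in them. In 22 of the 44 all 3 same-numbered pairs were higher in CpG, against 22.1%. These genes are read from the same libraries and cells and are not independent of each other.

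The lean towards higher values was much smaller without CpG library 2. That library was the highest in 36 of the 44, against 2201 of all 11602 genes tested. Without it, 29 of the same 44 were above 0 with a median of 0.25, where 5785 of the 11602 genes were above 0. The median log2 ratio of the 44 within number 2 was 1.45, against 0.39 and 0.36 within numbers 3 and 4. The other 67 genes, with totals of 15 to 81 reads, were too low to test. The CpG mean was higher in 60 of them, and CpG library 2 was highest or tied in 50. Over all 111 the CpG mean was above the untreated mean in 101, and in 67 when CpG library 2 was left out. A gene can meet the minimum of 15 reads through CpG libraries alone, as Ighv1-5 did with 0 untreated reads. These counts, and those of the 67 untested genes, are therefore in part set by the inclusion rule.

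**Figure D1:**
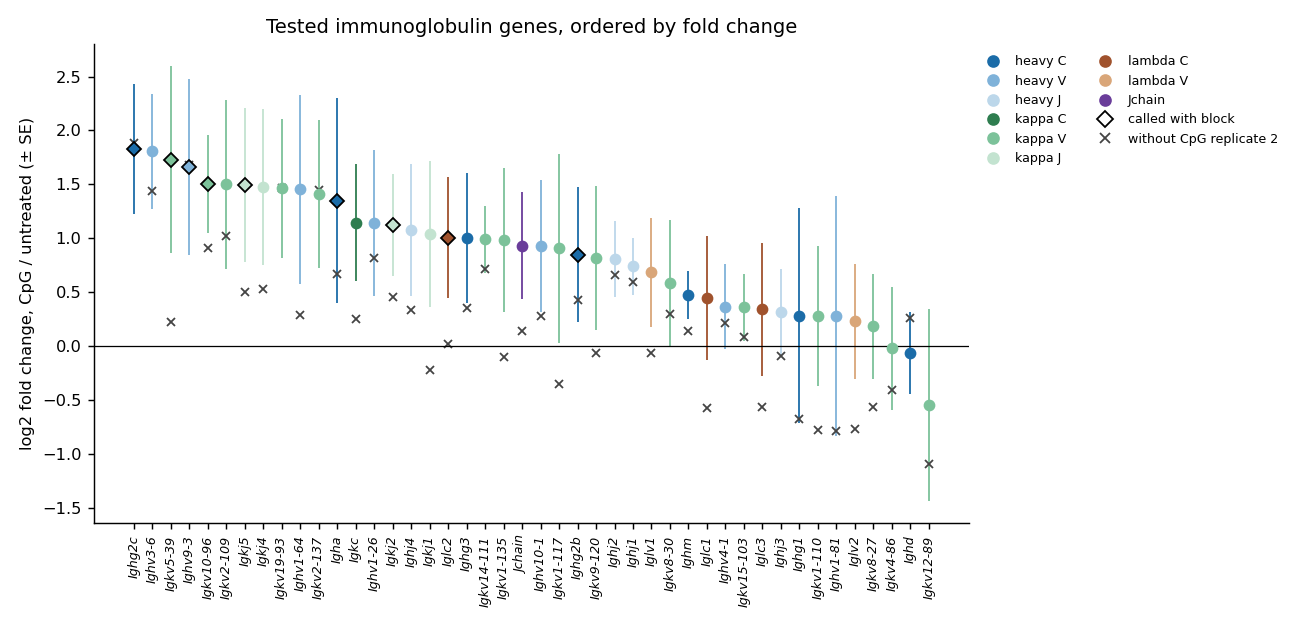
Log2 fold change, CpG over untreated, with its standard error (bars) for the 44 immunoglobulin genes tested, ordered by size and coloured by class; diamonds are the 9 genes called when the replicate number is a block, and crosses are the values without CpG replicate 2. Of the 44 points 41 lie above 0, and 29 of the crosses do.

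The numbers 2, 3 and 4 were treated as pairs in a further edgeR fit, with the number as a block, because same-numbered libraries deviated together across all genes. With that block 9 of the 44 were called higher and 0 lower, where 4.73% of all genes tested were called higher and 3.78% lower. The 9 were Igha, Ighg2c, Ighg2b, Iglc2, Igkv5-39, Igkv10-96, Ighv9-3, Igkj2 and Igkj5. In blocked fits that left out both libraries of a number, and so used 4 libraries, 3 genes were called higher without number 2 (Igha, Ighg2c and Igkv19-93), against 2.27% of all genes. Without number 3 the count was 8, against 2.2%, and without number 4 it was 29, against 7.99%. Some of these, such as Igkv4-53 among the 8 and Ighv1-5 and Igkv5-43 among the 29, were too low to test with all libraries. They passed the filter through CpG libraries alone, so these counts are in part set by the filter. All of these fits share libraries, and those leaving out a number were chosen after seeing the data, so their calls are not independent of each other. Igha and Ighg2c were the genes called in the full blocked fit and in all 3 fits leaving out a number. Of the other 7, none was called without number 2 (adjusted p from 0.199 to 0.583, Ighv9-3 being too low to test there), and Ighg2b and Igkj5 were called without number 3. All 7 were called without number 4 (edgeR adjusted p from 2.78e-10 to 0.0018).

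Ighm, the constant gene of IgM (Entrez 16019, chr12:113418826-113422730), was the most abundant immunoglobulin gene by read count. It stood at 571, 544 and 488 CPM in the untreated libraries 2, 3 and 4 and at 1052, 623 and 552 CPM in the CpG libraries 2, 3 and 4. CpG library 4 lay inside the untreated range and CpG library 2 far above all others. The log2 fold change of 0.47 (SE 0.22) was not called (edgeR adjusted p = 0.434, and 0.175 with the block), and it was 0.14 without CpG library 2. Its highest library exceeded its lowest by 2.15 times, against 6.98 times for Igkc and 31 times for Igha.

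Ighd, the constant gene of IgD that naive B cells splice from the same transcript as Ighm, was near the limit of counting. It stood at 1.60, 2.25 and 2.34 CPM in the untreated and at 0.981, 2.54 and 2.39 CPM in the CpG libraries, with both groups overlapping. In CpG library 2, where Ighm was highest, Ighd was lowest. Its log2 fold change was -0.07 (SE 0.38, edgeR adjusted p = 0.974).

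Among the switched classes, Ighg2c, Igha and Ighg2b were higher in CpG within every number. Ighg2c, the constant gene of IgG2c (Entrez 404711, chr12:113287389-113288932), stood at 2.95, 8.88 and 2.09 CPM in the untreated libraries 2, 3 and 4 and at 15.2, 27.65 and 6.55 CPM in the CpG libraries 2, 3 and 4. Each CpG library was above its own number, while CpG library 4 was below untreated library 3, so the groups overlapped. The log2 fold change was 1.83 (SE 0.61), with an edgeR adjusted p of 0.235 that became 5.61e-05 with the block (log2 fold change 1.86). Without CpG library 2 it was 1.88, without CpG library 3 it was 1.24 (adjusted p = 0.593) and without untreated library 3 it was 2.70 (adjusted p = 0.193). In the blocked fit without number 2 it was 1.64 (adjusted p = 0.000261). Ighg2c and Ighg2b are identical at 87.8% of 1214 aligned bases, so some reads could belong to either.

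Igha, the constant gene of IgA (Entrez 238447, chr12:113256204-113260236), showed the same order in each pair and a wide gap between numbers. It stood at 50.75, 61.5 and 5.65 CPM in the untreated and at 175, 115.5 and 9.19 CPM in the CpG libraries. Both libraries numbered 4 were low and the others were high, so the gap between numbers was wider than that between groups. CpG exceeded untreated by 1.35 on the log2 scale (SE 0.95), with an edgeR adjusted p of 0.669 that became 0.046 with the block (1.27). Without CpG library 2 the unblocked value was 0.67 and without untreated library 4 it was 0.83, and in the blocked fit without number 2 it was 0.865 (adjusted p = 0.00066).

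Ighg2b, the constant gene of IgG2b, had the same order within numbers. It stood at 10.6, 15.75 and 3.07 CPM in the untreated and at 26.5, 21.2 and 5.16 CPM in the CpG libraries, the number 4 libraries again being lowest. CpG exceeded untreated by 0.85 on the log2 scale (SE 0.63), with an edgeR adjusted p of 0.690 that became 0.0121 with the block (0.84), and by 0.43 without CpG library 2, 0.42 without untreated library 4 and 1.365 without untreated library 3. Ighg3 and Ighg1, the remaining gamma genes, had no such order. Ighg3 stood at 2.09, 2.38 and 8.48 CPM in the untreated and at 14.96, 6.85 and 4.16 CPM in the CpG libraries, with number 4 running opposite to the others (log2 fold change 1.003, SE 0.60, adjusted p = 0.584, and 0.35 without CpG library 2). Ighg1 was nearly missing from 1 library of each group, with 5.16, 4.75 and 0.123 CPM in the untreated and 7.97, 0.127 and 4.03 CPM in the CpG libraries. The 2 low values are single reads, in untreated library 4 and CpG library 3, and the fold change of 0.28 had a standard error of 0.996 (adjusted p = 0.966) and was -0.68 without CpG library 2.

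**Figure D2:**
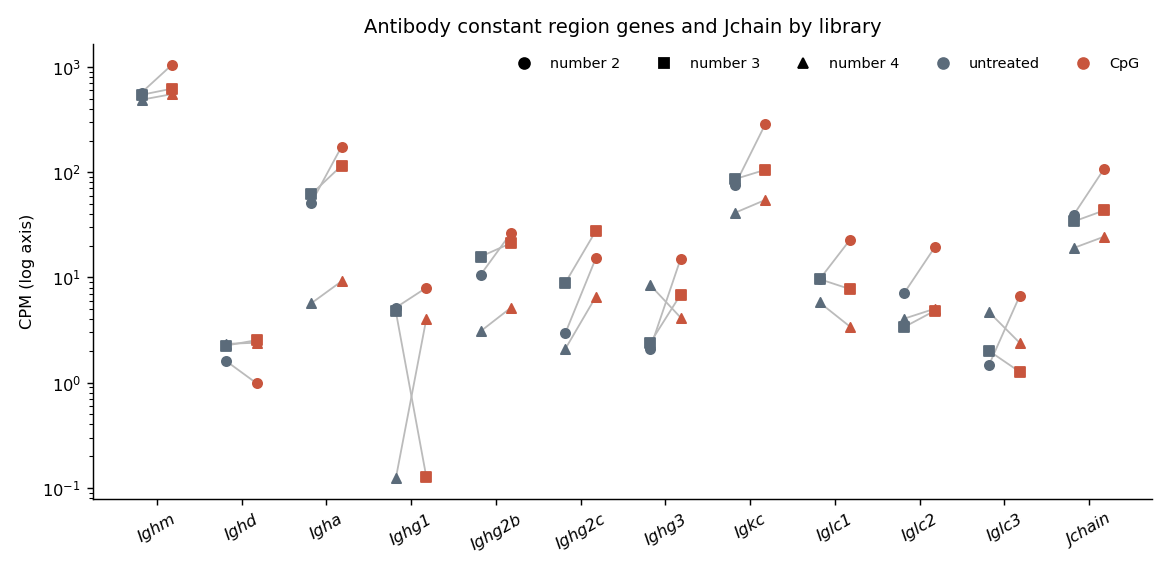
Level in CPM (log axis) of the constant region genes and Jchain in each of the 6 libraries, untreated in grey and CpG in red, with lines joining libraries of the same number (2 circle, 3 square, 4 triangle). Lines of Igha, Ighg2b, Ighg2c, Ighm, Igkc, Iglc2 and Jchain all climb, those of Ighg1, Ighg3, Ighd, Iglc1 and Iglc3 run both ways, and the triangles of Igha lie far below its other points.

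Summed over Igha and the 4 gamma genes, the switched classes took 71.5, 93.3 and 19.4 CPM in the untreated libraries 2, 3 and 4 and 240, 171 and 29.1 CPM in the CpG libraries 2, 3 and 4. The log2 ratio of the group means was 1.256, and 0.71 without CpG library 2, with 1.745, 0.88 and 0.58 within numbers 2, 3 and 4. CpG libraries 2 and 3 were above every untreated library and CpG library 4 below 2 of the 3. As a share of the heavy constant reads, Ighm took 88.65%, 85.1% and 95.7% in the untreated and 81.4%, 78.2% and 94.6% in CpG libraries, means that differed by -5.10 percentage points (89.8 ± 5.43 and 84.7 ± 8.71%, SD, n = 3 per group). The spread within each group was as large as that difference, and shares of reads do not correct for gene length. The share of Ighm was lower in CpG within each number.

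Within the switched classes the share of Igha followed the number rather than the group. The other classes did not all do so. Ighg3 took 1.66% of heavy constant reads in untreated library 4 and 0.712% in CpG library 4. Igha made up 71.0%, 66.0% and 29.1% of the switched reads in the untreated libraries 2, 3 and 4 and 73.0%, 67.4% and 31.6% in CpG libraries 2, 3 and 4. The exact (Clopper-Pearson) 95% intervals of number 4, 22.2 to 36.9% and 25.7 to 38.0%, lay far below the others, of which the lowest began at 62.4%. These intervals cover counting error only. The share of Ighg2c in the heavy constant reads was 0.458%, 1.39% and 0.410% in the untreated and 1.18%, 3.47% and 1.12% in CpG libraries, higher in CpG within each number.

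**Figure D3:**
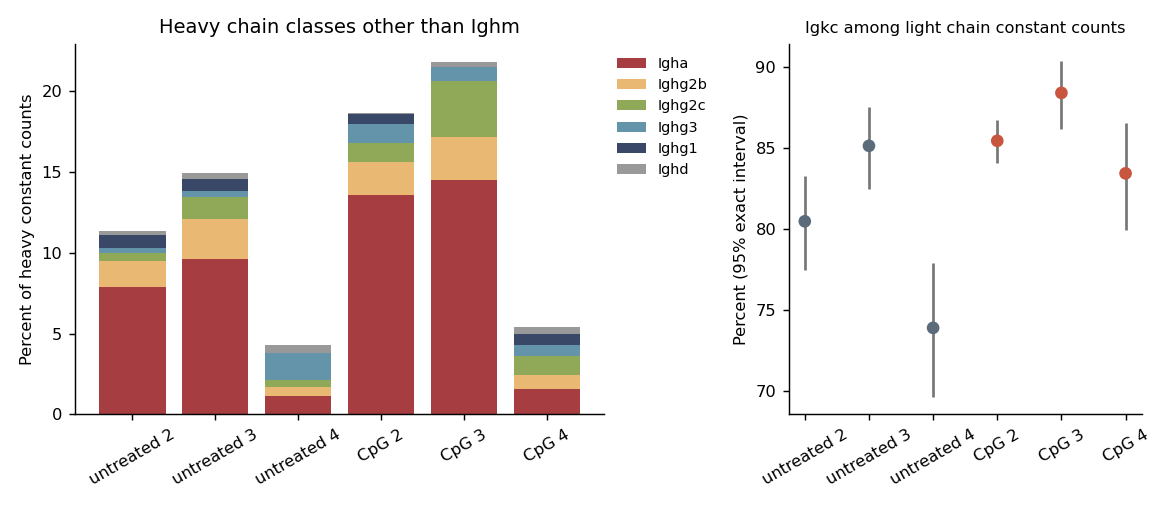
Left, the share of each heavy class other than Ighm in the heavy constant reads of each library (percent, stacked); right, the share of Igkc in the light chain constant reads with its exact 95% interval. The number 4 libraries hold the thinnest Igha bars, 1.11% and 1.575%, and untreated library 4 holds the lowest Igkc share, 73.9%.

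Igkc, the single kappa constant gene (Entrez 16071, chr6:70726435-70726754), was higher in CpG within each number but overlapped between groups. It stood at 75.0, 85.9 and 41.05 CPM in the untreated libraries and at 286, 105 and 54.5 CPM in the CpG libraries 2, 3 and 4. CpG library 2 was far above all others, and CpG library 4 less than 2 of the untreated libraries. The log2 fold change of 1.145 (SE 0.54) was not called (edgeR adjusted p = 0.442, and 0.472 with the block), and it was 0.25 without CpG library 2. Per length, Igkc stood at 210.3 ± 73.1 CPM per kilobase in the untreated and 464.9 ± 381 in CpG libraries, and Ighm at 358.5 ± 28.3 and 497.8 ± 181 (SD, n = 3 per group). Ighm per kilobase exceeded Igkc per kilobase by 1.635, 1.36 and 2.55 times in the untreated libraries and by 1.27 and 2.17 times in CpG libraries 3 and 4. In CpG library 2 the ratio was 0.788, so there alone the kappa level per length was the higher.

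The kappa variable segments gave the same picture as Igkc, from different stretches of the same RNAs. Summed, the 46 took 46.1, 49.5 and 30.5 CPM in the untreated and 165.5, 59.5 and 39.55 CPM in the CpG libraries, a log2 ratio of 1.07 that was 0.24 without CpG library 2. The number of Igkc reads per kappa variable read was 1.63, 1.735 and 1.35 in the untreated and 1.73, 1.77 and 1.38 in CpG libraries 2, 3 and 4. Of the 46, 15 were tested, 13 of them with a log2 fold change above 0.

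Igkv10-96 (chr6:68631965-68632430) was 1 of 3 tested kappa segments whose groups did not overlap. It reached the filter minimum in 3 CpG and 2 untreated libraries. It stood at 1.84, 1.125 and 1.97 CPM in the untreated and at 7.85, 3.55 and 2.645 CPM in the CpG libraries, the lowest CpG library still above the highest untreated one. Its log2 fold change was 1.502 (SE 0.45), with an edgeR adjusted p of 0.181 that became 0.0162 with the block (1.45), and 0.91 without CpG library 2. Of its 50-base stretches 32.6% also occur in another immunoglobulin gene. Igkv5-39 (chr6:69900424-69900977), the kappa segment with the most reads and with no such shared stretch, stood at 4.92, 1.75 and 1.475 CPM in the untreated and at 20.7, 4.95 and 1.385 CPM in the CpG libraries. It was high in CpG library 2 and, less so, in CpG library 3, and no higher in number 4. Its difference was 1.73 on the log2 scale (SE 0.87), with an edgeR adjusted p of 0.478 that became 0.0106 with the block (1.56), and 0.22 without CpG library 2.

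The other abundant kappa segments were not called in either fit. Igkv1-117 stood at 5.65, 5.001 and 0.738 CPM in the untreated and at 15.3, 5.20 and 0.756 CPM in the CpG libraries, low in both libraries numbered 4 as Igha was (log2 fold change 0.91, SE 0.88, edgeR adjusted p = 0.794, and -0.35 without CpG library 2). Igkv1-110 ran from 3.20 to 5.38 CPM in the untreated and from 0.882 to 10.8 CPM in the CpG libraries, and Igkv15-103 from 2.46 to 4.055 and from 2.77 to 5.52 CPM. Each overlapped between groups, with log2 fold changes of 0.28 (adjusted p = 0.940) and 0.36 (adjusted p = 0.753), which were -0.78 and 0.09 without CpG library 2.

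The kappa joining segments printed above summed to 8.725, 8.501 and 4.55 CPM in the untreated and 33.5, 11.4 and 6.30 CPM in the CpG libraries. Igkj2 and Igkj5 were called with the block. Igkj2 stood at 2.70, 2.75 and 1.72 CPM in the untreated and 9.08, 4.185 and 2.39 CPM in the CpG libraries, and only CpG library 4 fell inside the untreated range (log2 fold change 1.12, SE 0.475, edgeR adjusted p = 0.365, and 0.0442 with the block). Igkj5 stood at 1.97, 2.25 and 0.738 CPM in the untreated and 9.32, 3.68 and 1.01 CPM in the CpG libraries, again with number 4 lowest in each group (1.498, SE 0.715, adjusted p = 0.444, and 0.0291 with the block). Without CpG library 2 the values were 0.46 and 0.50. The segments are 38 or 39 bases long, so a read counted there also covers a neighbouring stretch, and the sources used here do not give how such reads were assigned.

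The heavy variable segments were fewer in reads. The 40 summed to 19.2, 35.9 and 14.01 CPM in the untreated and 88.8, 41.1 and 21.3 CPM in the CpG libraries, a log2 ratio of 1.13, and 0.44 without CpG library 2. For each heavy variable read there were 29.8, 15.2 and 34.85 Ighm reads in the untreated and 11.8, 15.15 and 25.95 in CpG libraries 2, 3 and 4. This count is not per length, and it was lowest in CpG library 2. Ighv3-6 (chr12:114288152-114288447) stood at 0.614, 2.375 and 0.492 CPM in the untreated and at 5.89, 3.17 and 3.15 CPM in the CpG libraries, without overlap. It reached the filter minimum in 3 CpG libraries and 1 untreated library. Its log2 fold change of 1.80 (SE 0.54) was not called, with edgeR adjusted p-values of 0.178 and 0.0559 with the block, and was 1.44 without CpG library 2 and 2.845 without untreated library 3.

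Ighv9-3 (chr12:114140692-114141122) was the heavy variable segment called with the block. It stood at 1.475, 0.625 and 0.246 CPM in the untreated and at 2.45, 4.69 and 0.378 CPM in the CpG libraries, with the number 4 libraries lowest and CpG library 4 below 2 untreated ones. On the log2 scale the difference was 1.66 (SE 0.82), with edgeR adjusted p-values of 0.464 and 0.0489 with the block, and it was 1.675 without CpG library 2. It was 0.86 without CpG library 3, where it was highest, and 0.70 in the blocked fit without number 3 (adjusted p = 0.563). Ighv1-81, which had the most reads of the heavy variable segments, varied widely among the libraries of each group. It stood at 3.69, 11.6 and 0.246 CPM in the untreated and at 12.8, 5.96 and 0 CPM in the CpG libraries, higher in CpG for number 2 and lower for number 3 (log2 fold change 0.27, SE 1.11, adjusted p = 0.968, and -0.79 without CpG library 2). Ighv10-1 and Ighv1-64 had log2 fold changes of 0.93 and 1.45 (adjusted p = 0.636 and 0.584), and 0.28 and 0.29 without CpG library 2.

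Segment use was uneven and differed between libraries. Ighv1-81 took 19.2%, 32.4% and 1.75% of the reads of the 40 segments in the untreated libraries 2, 3 and 4 and 14.4%, 14.5% and 0% in CpG libraries. In CpG library 4 it had 0 of 169 reads, which allows a share of up to 2.16% (exact 95% interval). Counting all 120 heavy variable rows, 55, 44 and 48 had a read in the untreated and 71, 53 and 57 in CpG libraries. Brought to the same depth of 139 reads, the expected numbers were 48.2, 36.2 and 48.0 in the untreated and 46.6, 39.1 and 48.3 in CpG libraries, where CpG library 2 no longer exceeded the others. For the 103 kappa variable rows at 273 reads, they were 47.0, 44.6 and 43.0 in the untreated and 51.4, 46.5 and 51.9 in CpG libraries. The leading heavy segment was Ighv6-6 in untreated library 4, Ighv3-6 in CpG library 4 and Ighv1-81 in the others, with 12.0 to 30.4% of the reads.

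The heavy joining segments printed above summed to 9.09, 13.4 and 6.76 CPM in the untreated and 23.1, 16.4 and 9.32 CPM in the CpG libraries, a log2 ratio of 0.74. Ighj1 did not overlap between groups, with 2.70, 2.5 and 1.97 CPM in the untreated and 4.78, 4.185 and 3.02 CPM in the CpG libraries. Its log2 fold change of 0.74 (SE 0.27) was not called by edgeR (adjusted p = 0.271, and 0.110 with the block) and was 0.59 without CpG library 2.

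The lambda genes were highest in CpG library 2, apart from Iglv3, and mixed in the other CpG libraries. The 3 lambda constant genes summed to 18.2, 15 and 14.5 CPM in the untreated and to 48.8, 13.8 and 10.8 CPM in the CpG libraries. CpG library 2 was above, and CpG libraries 3 and 4 below, every untreated library. The log2 ratio of means was 0.62 with all libraries and -0.37 without CpG library 2, and within numbers 2, 3 and 4 it was 1.42, -0.12 and -0.42. The 3 lambda variable segments gave 0.57 with it and -0.17 without it, with CpG library 3 above and CpG library 4 below every untreated library. The share of kappa in the light chain constant reads was 80.5%, 85.1% and 73.9% in the untreated and 85.4%, 88.4% and 83.4% in CpG libraries, higher in CpG within each number. The means were 79.8 ± 5.65% and 85.8 ± 2.503% (SD, n = 3 per group), a difference of 5.92 percentage points that was close to the spread within the untreated group. The difference between kappa and lambda was not tested.

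Iglc2 was the lambda gene called with the block. It stood at 7.13, 3.376 and 4.06 CPM in the untreated and at 19.4, 4.82 and 5.04 CPM in the CpG libraries, and 2 of the 3 CpG libraries lay within the untreated range. On the log2 scale CpG was higher by 1.01 (SE 0.56), with an edgeR adjusted p of 0.545 that became 0.0357 with the block (0.88), and 0.02 without CpG library 2. Its near copy Iglc3 went the other way in numbers 3 and 4, with 1.475, 2.00 and 4.67 CPM in the untreated and 6.62, 1.27 and 2.39 CPM in the CpG libraries, so a shift of reads between the copies cannot be told apart from a change. The log2 difference was 0.34 in Iglc3 (adjusted p = 0.918) and 0.45 in Iglc1, which is less alike (adjusted p = 0.862), and both turned without CpG library 2, to -0.56 and -0.58.

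The lambda variable segments Iglv1 and Iglv2 were highest in CpG library 2 and lowest in CpG library 4. Iglv1 ran from 5.04 to 9.38 CPM in the untreated and stood at 20.85, 9.51 and 4.16 CPM in the CpG libraries (log2 fold change 0.68, edgeR adjusted p = 0.689, and -0.07 without CpG library 2). Iglv2 ran from 4.50 to 7.74 CPM in the untreated and stood at 15.2, 4.31 and 3.27 CPM in the CpG libraries (0.23, adjusted p = 0.940), with -0.775 without CpG library 2 (adjusted p = 0.513). Iglv3, identical to Iglv1 at 56.1% of 362 aligned bases, had too few reads to test, 3, 6 and 0 in the untreated and 13, 22 and 7 in CpG libraries, which did not overlap.

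**Figure D4:**
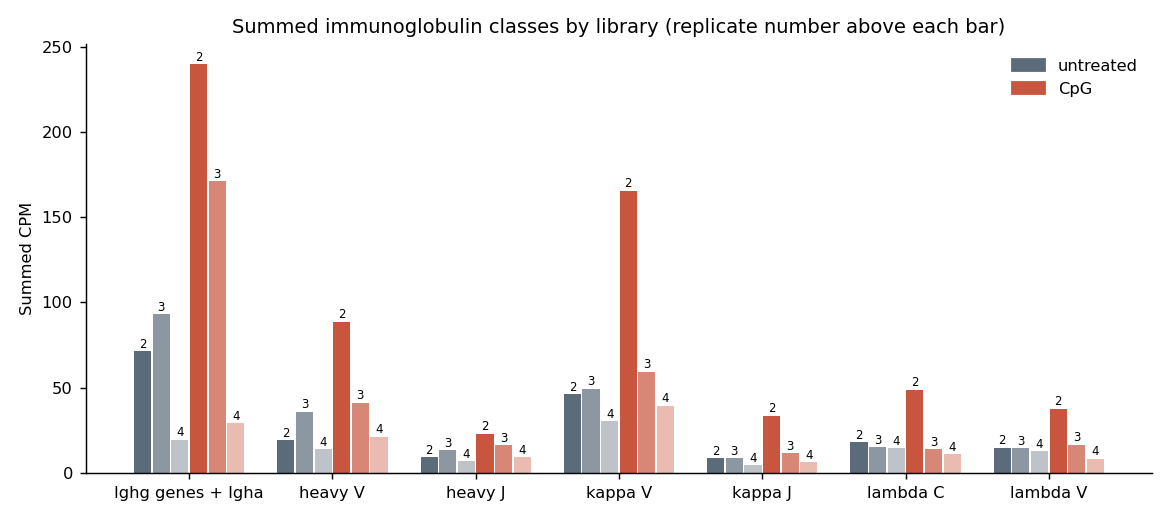
Summed CPM of immunoglobulin classes in each library (bars start at 0), untreated in grey and CpG in red, with the replicate number above each bar. CpG library 2 is the highest bar of every class, and in the lambda constant class CpG libraries 3 and 4, at 13.8 and 10.8 CPM, are the lowest bars.

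Jchain (Entrez 16069, chr5:88519809-88527897) stood at 39.45, 34.0 and 19.05 CPM in the untreated and at 108, 43.4 and 24.4 CPM in the CpG libraries 2, 3 and 4. As for Igkc, CpG library 2 was far above the rest, CpG library 4 lay within the untreated range, and number 4 was lowest in each group. The log2 fold change of 0.93 (SE 0.50) was not called (edgeR adjusted p = 0.522, and 0.278 with the block) and was 0.14 without CpG library 2.

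Markers of the cells that make antibody were set beside these values. Of the 18 B cell markers 13 were tested, with a median log2 fold change of -0.28 and 3 above 0. None was called by edgeR (0 higher and 4 lower at an unadjusted p under 0.05), and with the block Cr2 (complement receptor 2, -1.44, adjusted p = 0.00243), Blk (a B cell kinase, -0.54, 0.0231) and Bank1 (a B cell scaffold protein, -0.75, 0.000472) were called lower. The summed list took 574, 609.5 and 608.5 CPM in the untreated and 494.5, 609 and 665 CPM in the CpG libraries, so it was lowest in CpG library 2, where the antibody genes were highest. Cd22, an inhibitory receptor of B cells, made up 70.8 to 80.6% of that sum. Without it the list took 167.5, 174.1 and 172.5 CPM in the untreated and 117.6, 118.4 and 152.9 CPM in the CpG libraries. Several defining B cell genes were near 0. Pax5, the transcription factor that holds B cell identity, had 1, 2 and 0 reads in the untreated and 1, 1 and 4 in CpG libraries, Ebf1, another B cell factor, had 0 or 1, and Cd79a, a signalling chain of the B cell receptor, had 3, 7 and 3 and then 8, 5 and 11. The most abundant of the list were Cd22 (log2 fold change 0.11, edgeR adjusted p = 0.835), Bank1 (-0.75, 0.126) and Cd79b (-0.17, 0.818).

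Of the 16 plasma cell markers 12 were tested, with a median log2 fold change of 0.07, and none was called by edgeR (2 higher and 2 lower at an unadjusted p under 0.05). With the block 1, Slpi, a protease inhibitor, was called lower (-1.20, adjusted p = 0.026). The summed list took 838, 860 and 893.5 CPM in the untreated and 829, 918 and 848 CPM in the CpG libraries, a range within which the groups overlapped. The most abundant of the list, which are not confined to plasma cells, were Xbp1, Irf4 and Edem1 (log2 fold changes -0.07, -0.35 and 0.14, adjusted p = 0.934, 0.338 and 0.814). The markers closest to plasma cells were at few reads. Sdc1, which encodes CD138, had 0, 3 and 0 reads in the untreated and 4, 4 and 1 in CpG libraries, and Tnfrsf17, the receptor BCMA, had 1, 1 and 0 and then 0, 0 and 0. Mzb1, an endoplasmic reticulum protein of antibody-secreting cells, had 12, 10 and 8 reads in the untreated and 21, 12 and 6 in CpG libraries, highest in CpG library 2. Derl3 (9, 12 and 18, then 24, 10 and 5), Pou2af1 (4, 18 and 14, then 29, 13 and 12) and Eaf2 (9, 5 and 4, then 16, 4 and 4) were also highest in CpG library 2. These 4 are named for that order, and over the list 5 of the 12 tested and 6 of all 16 markers were highest in that library. Of all 11602 genes tested, 2201 were. The part of such cells in the antibody values was not tested.

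**Figure D5:**
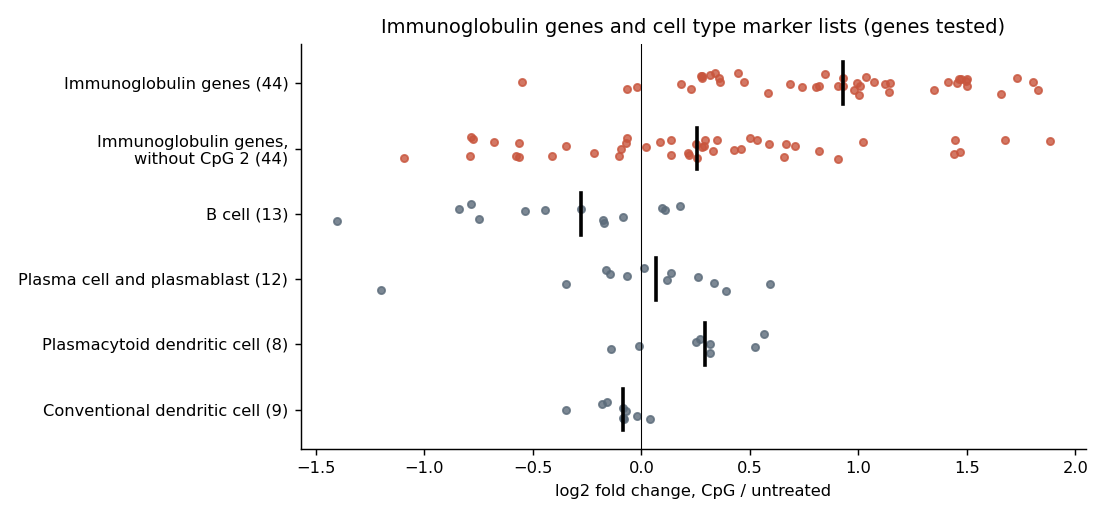
Log2 fold changes, CpG over untreated, of the tested genes of each list (points; black bars are medians; the number tested is in brackets). The immunoglobulin genes centre at 0.93, and at 0.25 without CpG library 2, while the B cell markers centre at -0.28 and the plasma cell markers at 0.07.

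Other lists gave the following summed levels. Plasmacytoid dendritic cells, a lineage that can carry partly rearranged heavy chain genes, had 8 of 11 markers tested, a median of 0.29 and no call by edgeR (1 higher and 0 lower at an unadjusted p under 0.05), with sums of 485 to 502 CPM in the untreated and 530 to 543 in CpG libraries. Summed B cell precursor markers took 0, 0 and 0.123 CPM in the untreated and 0.491, 0.634 and 0.252 CPM in the CpG libraries. These did not overlap but rest on few reads, and Rag1, Rag2 and Vpreb2 were at 0 reads in all libraries. Summed germinal centre markers ran from 125 to 162 CPM in the untreated and from 125 to 161 CPM in the CpG libraries, with Rgs13 among those at 0. Summed T cell markers ran from 40.7 to 46.9 CPM and NK cell markers from 1.01 to 3.80 CPM over all libraries. Erythroid markers were higher in CpG, with no overlap, at 22.5, 88.9 and 24.2 CPM in the untreated and 1003, 946 and 211 CPM in the CpG libraries, and Hba-a2, Hbb-bs, Alas2 and Epb42, genes of haemoglobin, haem and the red cell membrane, rose (edgeR adjusted p from 0.0398 to 0.0485), of which Hbb-bs and Alas2 were not called with the block (0.0668 and 0.135). Neutrophil markers summed to 76.2, 32.3 and 3.32 CPM and then 102, 59.5 and 53.1 CPM, so that number 2 was highest in each group. Red pulp macrophage markers were lower, at 472 to 596 CPM in the untreated and 332 to 445 CPM in the CpG libraries, and Vcam1, C1qa and C1qc fell (edgeR adjusted p from 0.0236 to 0.0444). The part of these cells in the antibody values was not tested. Of 10 genes of receptors for antibody and their partners, 7 were tested with a median of 0.15 and no call by edgeR (1 higher and 1 lower at an unadjusted p under 0.05). With the block Fcgrt, the neonatal Fc receptor, was called higher (0.30, adjusted p = 0.0383) and Fcgr3, an IgG receptor of myeloid cells, lower (-0.84, adjusted p = 0.0369), and Fcer1a was at 0 reads.

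Ighmbp2, the helicase gene that shares the prefix, stood at 24.7, 27.1 and 23.0 CPM in the untreated and at 25.3, 26.5 and 23.3 CPM in the CpG libraries, a log2 difference of 0.005 (SE 0.12, edgeR adjusted p = 0.993).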

How the data were processed

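Sequencing read counts were analysed from 6 libraries of polyadenylated RNA, 3 per group. The authors deposited whole-number read counts per Entrez gene, made with CASAVA and featureCounts on mm10 per the submitters' processing notes. The sources used here do not give versions, the aligner, strand setting or treatment of reads matching several genes, and multi-matching reads could raise or lower any variable segment. Symbols came from RefSeq for GRCm38.p6 (25275 of 27179 IDs matched; the other 1904 held 0.327% of counts), sequences from GENCODE M21.

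Counts were fitted in R 4.3.3 with edgeR 4.0.16 (filterByExpr minimum count 10 and total 15, TMM, robust quasi-likelihood F test, two-sided, Benjamini-Hochberg over all 11602 genes, called under 0.05); the script was tested on simulated data. Standard errors (SE) are the log2 fold change over the square root of F, and CPM use TMM library sizes. Alternatives were DESeq2 1.42.0, limma 3.58.1 (voom), other scalings and filters, the replicate block and leaving out each library. Whether a replicate is 1 mouse or a pool is not given, so the p-values cover only the spread among these 6 libraries. Same-numbered libraries correlated in their deviations from group means across genes at 0.479, 0.25 and 0.311 for numbers 2, 3 and 4 (others -0.394 to 0.066), which is above 0.1, so the numbers were taken as pairs from the data, the labels not saying what a number marks. Genes named are all constant genes and Jchain, the 5 heavy variable, 5 kappa variable and 3 lambda variable segments with most reads, further members called with or without the block, the called members and 3 most abundant of the B and plasma cell lists, and, of other lists, sums with genes at 0 or called. Others named (Ighj1, Igkv12-89, Igkv14-111, Igkv2-137, Igkv19-93, Igkv5-43, Ighv1-5, Ighv6-6, Cd8a and the low B and plasma cell markers) were chosen after their values were seen. Members and lists were chosen with earlier results of these data known. Some marker genes are not reported here.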

Additional observations from a re-analysis of the deposited data

How the results depend on the processing

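With library size only or upper quartile scaling, the median log2 fold change of the tested immunoglobulin genes was 0.91 or 0.90, against 0.93, and none was called. Of all genes tested, 113 were called by edgeR, 189 without a filter on low counts, 439 by DESeq2, 41 by limma-voom and 988 with the replicate block. Leaving out one replicate at a time gave 0 to 386 whole-table calls (34, 2 and 1 without untreated replicates 2, 3 and 4; 0, 0 and 386 without CpG replicates 2, 3 and 4, the zeros having 1065 and 1107 genes with unadjusted edgeR p under 0.05) and 0 to 2 immunoglobulin genes called higher. Those 2, called without CpG replicate 4, were Ighv1-5 (adjusted p = 0.0318), which had 0 reads in the untreated libraries, and Igkv5-43 (0.0376). Both were too low to test with all libraries and passed the filter through CpG libraries alone. With the replicate block 9 immunoglobulin genes were called higher in place of 0. Blocked fits without number 2, 3 or 4, chosen after seeing the data, called 513, 482 and 1594 genes over the table and 3, 8 and 29 immunoglobulin genes. Some of the 8 and of the 29 passed the filter through CpG libraries alone. No fit called an immunoglobulin gene lower. Leave-one-out log2 ratios ran from 0.24 to 1.42 for the summed kappa variable segments and from -0.37 to 0.98 for the lambda constant genes, the low end of each being without CpG replicate 2. Bank1 was called lower by DESeq2 (adjusted p = 0.0273), with the block and without CpG replicate 4 (0.0301), and Irf4 without CpG replicate 4 (0.0442). The block changed no other call among the immunoglobulin genes. With 1 read worth 0.123 to 0.127 CPM, segments below about 1 CPM rest on few reads, and 67 of the 111 genes could not be tested. The cause of these differences between settings was not tested.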
